A study of Mus musculus with 38 samples.

Results

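Chemokines are small secreted proteins that steer moving cells, and their receptors are seven-helix membrane proteins on the cells that respond. The genes described here are the rows of the table whose symbol starts with Ccl, Cxcl, Ccr or Cxcr followed by a digit, plus Ppbp, Pf4, Cx3cl1, Cx3cr1 and Xcl1. They make up 57 of 21705 rows, 38 for ligands and 19 for receptors. The study made mice in which the kidney tubule carries a Dox (doxycycline) inducible MYC transgene, alone (MYC), with Vhl deleted (VM), or with Vhl and Ink/Arf deleted (VIM). It sequenced RNA from 1 cell line per genotype, grown with or without Dox, from tumours of each genotype and from normal kidney.

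The cell groups hold 4 libraries each, taken 24 h after plating with 2 µg/ml Dox or without it. The labels call the first kept on Dox and the second withdrawn from it, so each Dox difference compares kept with withdrawn cells. Each genotype is represented by 1 line, so a difference between lines is not yet a difference between genotypes, and whether the 4 libraries are separate cultures is not stated. The p values therefore measure spread between these libraries, which may be technical. The tissue groups hold 3 tumours per genotype and 5 normal kidneys of wild-type, vehicle-treated mice. MYC tumours 2 and 3 come from 1 mouse, the one whose number the MYC line also carries, and were averaged for tests, which leaves 2 MYC animals. The published text gives the VM line the mouse number that VM tumour 2 carries. Kidneys 1 and 3 carry B6 in their titles and kidneys 2, 4 and 5 carry KT, and the strain of the others is not given. Tumour mice were on Dox and the kidney mice were not, so tumour, genotype and Dox cannot be separated in that comparison. The published methods also give oral tamoxifen before Dox to activate Cre, and its part in the tumour values was not tested.

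The table lets the labels be examined through the altered genes. Vhl averaged 13.1 units with Dox and 31 without in the VM line, 12.7 and 17.1 in the VIM line, and 451 and 533 in the MYC line. Cdkn2a, the Ink/Arf gene, averaged 30 and 34.1 in the VIM line against 3171 and 3564 in the MYC line and 3804 and 5162 in the VM line. In tissue, Vhl averaged 499 units in MYC, 53.6 in VM and 252 in VIM tumours and 686 in kidney, and Cdkn2a averaged 1013, 4013, 53.1 and 1.37. The MYC tumours ranged from 59.3 to 2872 for Cdkn2a, so 1 library carries that mean. The mouse Myc row was lower in libraries labelled Dox, at 676 against 1831 units in the MYC line, 384 against 1364 in VM and 381 against 1479 in VIM. Whether this row counts reads of the transgene is not stated. Nolc1, a nucleolar gene picked after its values were seen, averaged 7911 against 2821, 7815 against 1597 and 8020 against 1500 units with and without Dox. No line without the transgene was given Dox, so an effect of the drug and an effect of MYC induction cannot be told apart.

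Chemokine ligands fall into families named for the spacing of their first cysteines, and each binds receptors of the matching family, often several of them. The CXC ligands with a Glu-Leu-Arg motif draw neutrophils through Cxcr1 and Cxcr2, and the interferon-induced CXC ligands draw T and NK cells through Cxcr3. Many CC ligands draw monocytes, dendritic cells or lymphocytes, and some chemokines, such as Cxcl12, hold cells in place in resting tissue.

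Values are units scaled so that the upper quartile of the values above 0 is 1000 in every library, and they are not corrected for gene length. A value of 3 reads or fewer is treated as the floor, which lies between 1.16 and 5.65 units depending on the library. Of the 57 members, 10 never passed the floor in any library: the eosinophil ligand Ccl24, Ccl1, which acts on Ccr8, Ccl26, a Ccr3 ligand at 0 throughout, the skin ligand Ccl27b, the lung ligand Cxcl15, and the receptors Ccr1l1, Ccr3, Ccr4, Ccr6 and Ccr8. In cells 30 members stayed at or under the floor in every library and 27 passed it at least once. A gene is called changed at adjusted p < 0.05 and an absolute log2 difference above 1, and "rose" or "fell" is used for such genes alone. Folds are ratios of group means, or of a group mean to the floor, so they need not equal the tested log2 value and a single high library can carry them. In all, 40 members were called in at least 1 comparison and 17 in none.

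With Dox, more chemokine genes were called lower than higher in each line, by a narrow margin in VIM once genes near the floor are left out. In the MYC line 16 of 25 tested members fell and 0 rose, where 15 % of all tested genes fell and 4.49 % rose. In the VM line 9 of 25 fell and 1 rose, against 18.9 % and 5.92 % of all genes. The rise, of Cxcl14, was not called without VM noDox 1 (0 higher and 10 lower members) or with a pseudocount of 10 (0 and 6). In the VIM line 8 of 24 fell and 2 rose, against 16.6 % and 7.67 %. Ppbp, Cxcr7, Ccl9, Ccl17, Ccl5 and Ccl2, 6 genes, passed the test as lower in all 3 lines, 3 more in 2 lines and 9 in 1 line. Of the 29 members tested in any line these are 20.7 %, 10.3 % and 31 %, where the shares of all 15625 such genes are 7.05 %, 7.18 % and 11.2 %. Some of these calls lie at the floor, among them Ccl9 in VM and Ccl5, Cxcr4 and Cxcr7 in VIM, and the VIM line has 3 lower and 2 higher members with a mean filter of 10 units and 3 lower and 1 higher with a pseudocount of 10. The median member differed by −1.49 log2 in MYC, −0.59 in VM and −0.65 in VIM, while the median of all tested genes was −0.13, −0.26 and −0.15. The tests used limma with correction over all tested genes, 15104 in MYC, 14319 in VM and 13998 in VIM. Scaling matters for these medians. Among genes averaging 50 units or more the median was −0.06, −0.17 and −0.09, and 0.08, 0.07 and 0.07 after trimmed-mean scaling. Member counts after that scaling were 0 higher and 16 lower in MYC, 1 and 8 in VM, and 3 and 8 in VIM. Whether a Dox effect differed between lines was tested directly, and 9 of 34 members differed between VM and MYC, 14 between VIM and MYC and 7 between VIM and VM, where 8.53 %, 8.81 % and 6.42 % of all 16092 genes did.

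**Figure D1:**
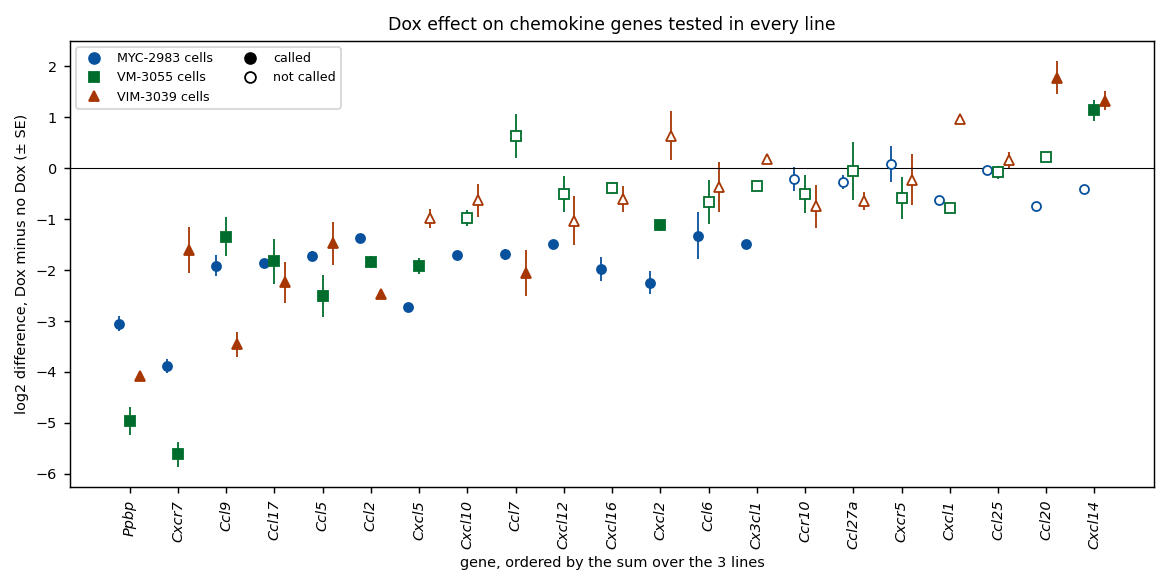
Log2 difference with Dox (± standard error) for the 21 chemokine genes tested in every line. Filled symbols are called, open symbols are not. Each line has 4 libraries with and 4 without Dox.

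Among the neutrophil-attracting ligands, Ppbp, the precursor of platelet basic protein, fell most. In the MYC line it read 20.1, 12.5, 12.5 and 17.8 units with Dox and 133, 135, 133 and 139 without. In the VM line it read 1.48, 5.11, 6.79 and 2.63 against 141, 137, 151 and 135, and in the VIM line 49.3, 52.7, 58.4 and 54.1 against 862, 946, 922 and 941. The groups were far apart in every line. Log2 differences were −3.05 ± 0.149 (standard error; adjusted p 1.33e-12), −4.96 ± 0.279 (1.96e-11) and −4.07 ± 0.0747 (6.6e-21), or 8.56, 35.3 and 17.1-fold. The fall was larger in VM than in MYC (difference −1.92, p 7.75e-06) and larger in VIM than in MYC (−1.03, p 0.00721). The VIM against MYC difference lost its call when MYC Dox 1 (−0.90), MYC Dox 4 (−0.96) or VIM Dox 1 (−0.99) was left out, with a pseudocount of 0.1 (−0.97) and with quantile scaling (−0.69). The VM against MYC call ended with a pseudocount of 10 (−0.94). VIM and VM differed by 0.89, which was not called.

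Cxcl5, a Cxcr2 ligand, fell in the MYC line, from 299, 301, 288 and 282 units to 52, 42.4, 40.1 and 39.8, and in the VM line, from 101, 125, 124 and 109 to 33.3, 34.9, 22.9 and 28.1. No library with Dox reached any library without it. The tests gave −2.73 ± 0.0913 (p 5.88e-15) and −1.92 ± 0.153 (2.48e-09). In the VIM line its mean was 22.5 against 45.1 units (−0.98, p 5.92e-05), just short of a call, and VIM differed from MYC by 1.74 (6.68e-08). Cxcl2, which acts on the same receptor, read 10.1, 15.2, 13.5 and 5.77 with Dox and 59.1, 61.9, 48 and 47.3 without in the MYC line. In the VM line it read 85.0, 91.9, 103 and 121 against 220, 236, 212 and 199. The sets were separate in each line. It fell in each (−2.25 ± 0.227, p 4.77e-08; −1.12 ± 0.111, p 5.12e-08), but the VM call was lost with trimmed-mean scaling (−0.88) and with quantile scaling (−0.74). In the VIM line Cxcl2 was near the floor with and without Dox (means 2.97 and 2.04), and its Dox effect there differed from MYC by 2.89 and from VM by 1.76. A gene near the floor has little room to fall, which limits what these differences can say.

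Cxcl1, the most abundant neutrophil-attracting ligand by level per length in 5 of the 6 cell groups, was not called in any line. Its mean was 752 against 1163 units in MYC (−0.63, p 1.05e-11) and 592 against 1016 in VM (−0.78, p 8.13e-10). In the VIM line it went the other way, with 752, 696, 643 and 640 units with Dox and 337, 324, 388 and 353 without, groups that do not touch. The value of 0.96 ± 0.0624 (p 5.56e-12) missed the fold threshold and passed it with trimmed-mean scaling (1.12), quantile scaling (1.04) and voom (1.07). The direct test called the VIM line different from MYC (1.59, p 6.72e-15) and from VM (1.74, p 1.5e-15). Cxcl3 fell in the MYC line from a mean of 10.8 to 0.683 units, at least 6.43-fold. Cxcl15 did not pass the floor.

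**Figure D2:**
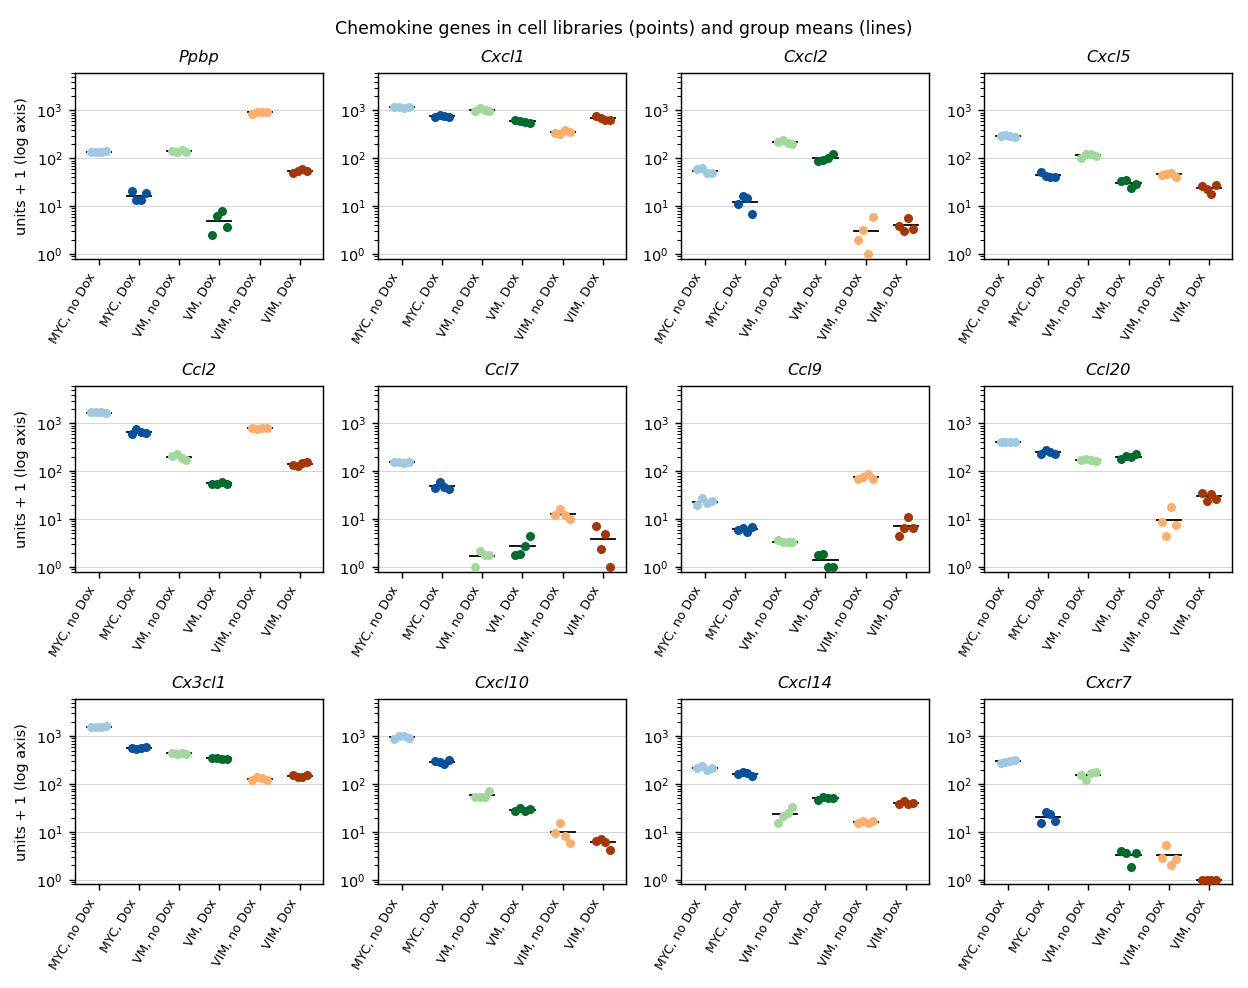
Units of 12 chemokine genes in each cell library, on a log axis after adding 1. Points are libraries, 4 per group, and lines are group means.

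Of the interferon-induced ligands for Cxcr3, Cxcl10 fell in the MYC line, where it read 308, 289, 256 and 321 units with Dox and 894, 998, 1019 and 919 without. The sets were separate, at −1.70 ± 0.0600 (p 1.19e-14), or 3.26-fold. Its VM means were 28.3 and 56.9 (−0.97, p 2.09e-05; −0.75 with trimmed-mean and −0.25 with quantile scaling), and its VIM means were 5.07 and 8.79, neither called. VIM differed from MYC by 1.07 (p 0.00242), a call lost without VIM Dox 2 (0.98) or VIM noDox 4 (0.87) and with a pseudocount of 0.1 (0.99). Cxcl11 fell in the VM line, from a mean of 21.8 to 4.32 units (−2.11); it was at or under the floor in the MYC line and at 0 in every VIM library. Cxcl9 never passed the floor in cells, nor did Cxcr3, the receptor of these ligands.

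The other CXC ligands went in different directions. Cxcl12, which binds Cxcr4 and Cxcr7, fell in the MYC line, from 346, 329, 355 and 354 units to 132, 123, 114 and 125. The groups were well apart (−1.48 ± 0.0611, p 1.12e-13). In VM its mean was 2.23 with and 3.38 without Dox. Cxcl16, a membrane-bound ligand of Cxcr6, fell in the MYC line from a mean of 43.6 to 11.1 (−1.98); in VM it averaged 85.9 and 113 (−0.39) and in VIM 10.2 and 16, neither called. Its MYC fall differed from VM by 1.59 and from VIM by 1.38. Cxcl14, an epithelial chemokine, rose in VM, from a mean of 22.6 to 49.3 units (1.14, p 8.32e-05; not called without VM noDox 1 or with a pseudocount of 10), and in VIM, from 15 to 39.2 (1.33, p 1.28e-06). With a pseudocount of 10 the VIM line had 1 higher member in place of 2, so the VIM rise of Cxcl14 or of Ccl20 ended there. In the MYC line it averaged 164 and 216 (−0.40, not called), and the direct tests separated VM from MYC (1.54, p 2.13e-06) and VIM from MYC (1.73, p 3.55e-07). Pf4 or platelet factor 4, the B-cell ligand Cxcl13 and the mucosal Cxcl17 did not pass the floor in cells.

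Cx3cl1 or fractalkine, which tethers cells that carry Cx3cr1, read 563, 531, 553 and 590 units with Dox and 1523, 1588, 1561 and 1626 without in the MYC line. No values overlapped. It fell by 1.49 (standard error 0.0350, p 5.91e-17), or 2.82-fold. Means were 342 against 437 in VM (−0.35) and 146 against 128 in VIM (0.18, p 0.0780), neither called. The MYC line differed from VM by 1.14 (p 4.95e-13) and from VIM by 1.68 (p 1.4e-16). Xcl1, a lymphocyte product that draws dendritic cells, stayed at or under the floor in cells.

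Ccl2, the main Ccr2 ligand for monocytes, fell in every line. It read 585, 762, 651 and 642 units with Dox and 1697, 1692, 1707 and 1637 without in the MYC line, and 53.2, 52.8, 58.6 and 53.5 against 208, 225, 192 and 171 in the VM line. In the VIM line it read 137, 129, 148 and 156 against 793, 753, 802 and 801. None of these sets overlapped. The tests gave −1.36 ± 0.0541 (p 6.82e-14), −1.84 ± 0.112 (5.89e-11) and −2.46 ± 0.0648 (1.22e-18), or 2.55, 3.65 and 5.52-fold. The VIM fall was larger than the MYC fall (−1.10, p 1.72e-09; −0.96 and not called with quantile scaling), whereas VM against MYC (−0.49) and VIM against VM (−0.62) were not called.

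Ccl7, which also acts on Ccr2, fell in the MYC line from 155, 156, 146 and 155 units to 43.6, 57.6, 45 and 41.9, with no overlap (−1.69 ± 0.105, p 4.41e-11). It also fell in VIM, from a mean of 11.8 to 2.89 (−2.06). In VM it was near the floor throughout, and VM differed from MYC by 2.32 (p 0.00122) and VIM from VM by −2.69. The near-floor VM values limit what these differences can say. Ccl5, which draws T cells, read 124, 105, 83.4 and 124 with Dox and 345, 365, 357 and 363 without in MYC, again separate. Its log2 value was −1.72 ± 0.0968 (p 9.95e-12), and its means fell from 8.55 to 0.808 in VM (−2.50, at least 3.25-fold) and it passed the test in VIM (−1.47) at means of 2.70 and 0.376, with every library at or under the floor. Ccl17, a Ccr4 ligand, read 78.8, 85.4, 69.9 and 78.6 with Dox and 244, 285, 300 and 320 without in MYC, also without overlap. It fell by 1.86 (standard error 0.0876, p 7.4e-13), and from 5.44 to 1.08 in VM (−1.83) and from 5.73 to 0.520 in VIM (−2.24, at least 2.36-fold). With a pseudocount of 10 the VIM line had 3 lower members, Ppbp, Ccl2 and Ccl9, so its Ccl7, Ccl5 and Ccl17 calls ended. The VM line had 6 lower members there in place of 9. No pair of lines differed for Ccl17 (0.03, −0.37 and −0.40).

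Ccl9, a Ccr1 ligand, fell in the VIM line, with 3.47, 5.55, 9.84 and 5.66 units with Dox and 66.4, 75.8, 84.7 and 68.0 without. These lie far apart (−3.46 ± 0.242, p 2.08e-11). Means fell from 22.2 to 5.14 in MYC (−1.91). In VM Ccl9 passed the test as lower (−1.34) near the floor, at means of 0.397 with and 2.39 without Dox. VIM differed from MYC by −1.54 and from VM by −2.12 (−1.57 and −0.60 with a pseudocount of 0.1, neither called). The near-floor VM values limit what the last difference can say. Ccl20, the Ccr6 ligand, rose in VIM from 7.59, 3.34, 17.3 and 6.64 to 34.7, 22.9, 32.2 and 25.0 (1.78 ± 0.327, p 4.23e-05). Its means were 246 and 409 in MYC (−0.74, p 3.11e-09) and 202 and 171 in VM (0.23, p 0.0252), not called, and VIM differed from MYC by 2.52 and from VM by 1.55 (0.87 and not called with a pseudocount of 10). Ccl4, which draws monocytes and T cells, fell in MYC from a mean of 9.80 to 1.49 (−2.23), and was 0 in every VM and VIM library. Ccl6, a Ccr1 ligand, fell in MYC from 3.25 to 0.402 (−1.32, at least 1.94-fold), and for Ccl4 and Ccl6 some libraries of the groups overlap. The gut ligand Ccl25 averaged 136 and 139 in MYC, 57 and 60.2 in VM, and 51.7 and 46.3 in VIM, and the skin ligand Ccl27a averaged 47.5 and 57.2 in MYC and 28.9 and 45.1 in VIM, none called. The eosinophil ligands Ccl11 and Ccl24, the monocyte ligands Ccl8 and Ccl12, the Ccr7 ligands Ccl19 and Ccl21c, the Ccr4 ligand Ccl22 and the Ccr1 ligand Ccl3 did not pass the floor in any cell library.

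Cxcr7, an atypical receptor that takes up Cxcl12 and Cxcl11, showed the largest receptor change. In the MYC line it read 14.5, 24.5, 22.8 and 16.2 units with Dox and 278, 294, 306 and 310 without, and in the VM line 2.96, 2.55, 0.849 and 2.63 against 153, 121, 167 and 174. The sets were far apart in these lines. The tests gave −3.89 ± 0.138 (p 1.31e-14) and −5.62 ± 0.243 (p 5.59e-13), and the VM libraries with Dox lie around the floor. In the VIM line the mean was 0 with and 2.26 without Dox (−1.60), with 1 library above the floor. VM differed from MYC by −1.73 (p 3.71e-04; −0.93 with quantile scaling and −0.34 with a pseudocount of 10, neither called), VIM from MYC by 2.29 and VIM from VM by 4.02, and the near-floor VIM values limit what the last ones can say. With a pseudocount of 0.1 the VIM against MYC value became −0.41, and with voom 1.14, neither called. Cxcr4, the signalling receptor for Cxcl12, passed the test in VIM (−1.28) with every library at or under the floor, at means of 0 and 1.49, which supports no fall, and averaged 4.85 and 8.86 in MYC (−0.73, not called). Ccr10, a receptor for Ccl27a, averaged 5.95 and 7.11 in MYC, Cxcr5 did not exceed a mean of 1.70 and Cxcr6 did not exceed 1.53. The leukocyte receptors Ccr1, Ccr2, Ccr7, Ccr9, Cxcr1, Cxcr2 and Cxcr3 did not pass the floor in cells.

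Genes of related pathways were read beside these results. With Dox, 15 % of all tested genes fell and 4.49 % rose in MYC, 18.9 % and 5.92 % in VM, and 16.6 % and 7.67 % in VIM. Of the interferon-response list 14 of 14 tested genes fell in MYC, 11 of 13 in VM and 7 of 12 in VIM, and 0 rose. The largest falls among genes averaging 50 units or more without Dox were Irf7 −2.86, Gbp2 −2.71, Ifit3 −2.57 and Gbp3 −2.49 in MYC, Isg15 −3.65, Gbp2 −3.55, Ifit3 −3.09 and Stat2 −1.73 in VM, and Gbp2 −4.20, Ifit3 −2.42 and Stat2 −1.21 in VIM. Of the NF-kB and cytokine list 7 of 16, 6 of 15 and 7 of 13 fell and 0 rose, among them Csf3 −2.67 and Tnfaip3 −1.92 in MYC, Nfkbie −1.76 and Csf1 −1.71 in VM, and Tnfaip3 −2.56 and Relb −1.55 in VIM. Other genes of the chemokine system, 20 of 25 found in the table, gave these counts: 1 rose (Mif 1.15) and 3 fell of 16 in MYC, 0 rose and 2 fell (Arrb1 −1.25) of 16 in VM, and 1 rose (Dpp4 1.52) and 1 fell (Gnai2 −1.05) of 16 in VIM. Those counts lie near or below the shares of all genes. In the direct tests of VM against MYC, VIM against MYC and VIM against VM, 3, 3 and 3 of 14 interferon genes were called with a higher and 2, 2 and 0 with a lower Dox effect. For the NF-kB and cytokine list 1, 2 and 0 of 18 were higher, for the other chemokine-system genes 1, 4 and 0 of 17, and 0 were lower in either list. Of all genes 8.53 %, 8.81 % and 6.42 % were called in these direct tests, in either direction. What part the pathway genes play in the chemokine values was not tested.

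Marker genes show what the cell libraries contain. Beside the counts below, 15 % of all tested genes fell and 4.49 % rose with Dox in MYC. In VM these shares were 18.9 % and 5.92 %, and in VIM 16.6 % and 7.67 %. Kidney epithelium markers summed to between 8968 and 22921 units, with Cdh16 the most abundant in all groups but VM with Dox, where Lrp2 was. Fibroblast markers summed to between 296 and 309 units with Dox and between 991 and 1180 without in MYC, between 87.4 and 111 and between 630 and 710 in VM, and between 25.0 and 35.4 and between 140 and 180 in VIM. Of these 4 of 7 tested genes fell in MYC, 3 of 5 in VM and 2 of 3 in VIM, with Col1a2 at −2.19, −2.86 and −2.18. Macrophage markers summed to between 215 and 938, mostly Csf1r, and 2 of 3, 2 of 3 and 1 of 4 fell. Leukocyte markers summed to between 7.27 and 95.1 with 1 of 3, 1 of 1 and 1 of 2 lower, and T-cell markers to between 0 and 64.8, mostly Lck with Cd3d at 0 throughout, with 0 of 1, 1 of 1 and 0 of 1 lower. Neutrophil markers reached 10.5, NK markers 1.09, B-cell markers 4.90 and endothelial markers 12.5 units at most. Called among the rest were 1 of 1 B-cell gene lower in MYC, the dendritic gene Flt3 higher in each line, 1, 2 and 1 of 4 megakaryocyte and platelet genes lower, and 1 of 7, 2 of 6 and 0 of 6 kidney-epithelium genes lower. No tested neutrophil, endothelial or red-cell marker was called, and their part was not tested.

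Between tumours and kidney, chemokine genes were called in each direction, at shares near those of all genes in most cases. In MYC tumours 9 of 52 tested members rose and 8 fell against kidney, where 18.8 % of all tested genes rose and 18.6 % fell. In VM tumours 9 of 52 rose and 12 fell, against 17.3 % and 22.5 %, and in VIM tumours 16 of 54 passed the test as higher and 13 as lower, against 18.9 % and 20.7 %. The VIM counts include calls that lie at the floor, Cxcr1 and Ccl24 as higher and Xcl1 as lower, and are 12 higher and 10 lower with a mean filter of 10 units. The MYC counts are 15 higher and 5 lower with voom, and 4 higher and 7 lower without MYC tumour 1. The VM counts are 3 higher and 9 lower with B6 kidneys alone, and 8 and 17, 13 and 11, or 5 and 11 without VM tumour 1, 2 or 3. Cxcl1, Cxcl2, Cxcl3, Cxcl5, Pf4, Ccl7 and Ccl8, 7 genes, passed the test as higher in all 3 genotypes, and Cxcl12, Cxcl14, Cx3cl1, Cxcl9, Ccl19, Ccl21c, Ccr2 and Ccr10, 8 genes, fell in all 3. These are 13 % and 14.8 % of the 54 members tested, against 10.8 % and 12.9 % of all 16926 genes tested in any of them. The 3 comparisons use the same 5 kidneys, so a kidney value enters each of them. Median log2 values were 0.35, −0.28 and 0.11 for members and 0.07, −0.05 and 0.01 for all genes. With 3 tumours a single library can decide a call, and for called members with values per library, calls that end or values that shift when 1 library is left out are named below. For members with lower values these refits are given only as counts of called members. Tumours are mixtures, and in bulk samples fewer cells of a type and less RNA per cell cannot be told apart.

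**Figure D3:**
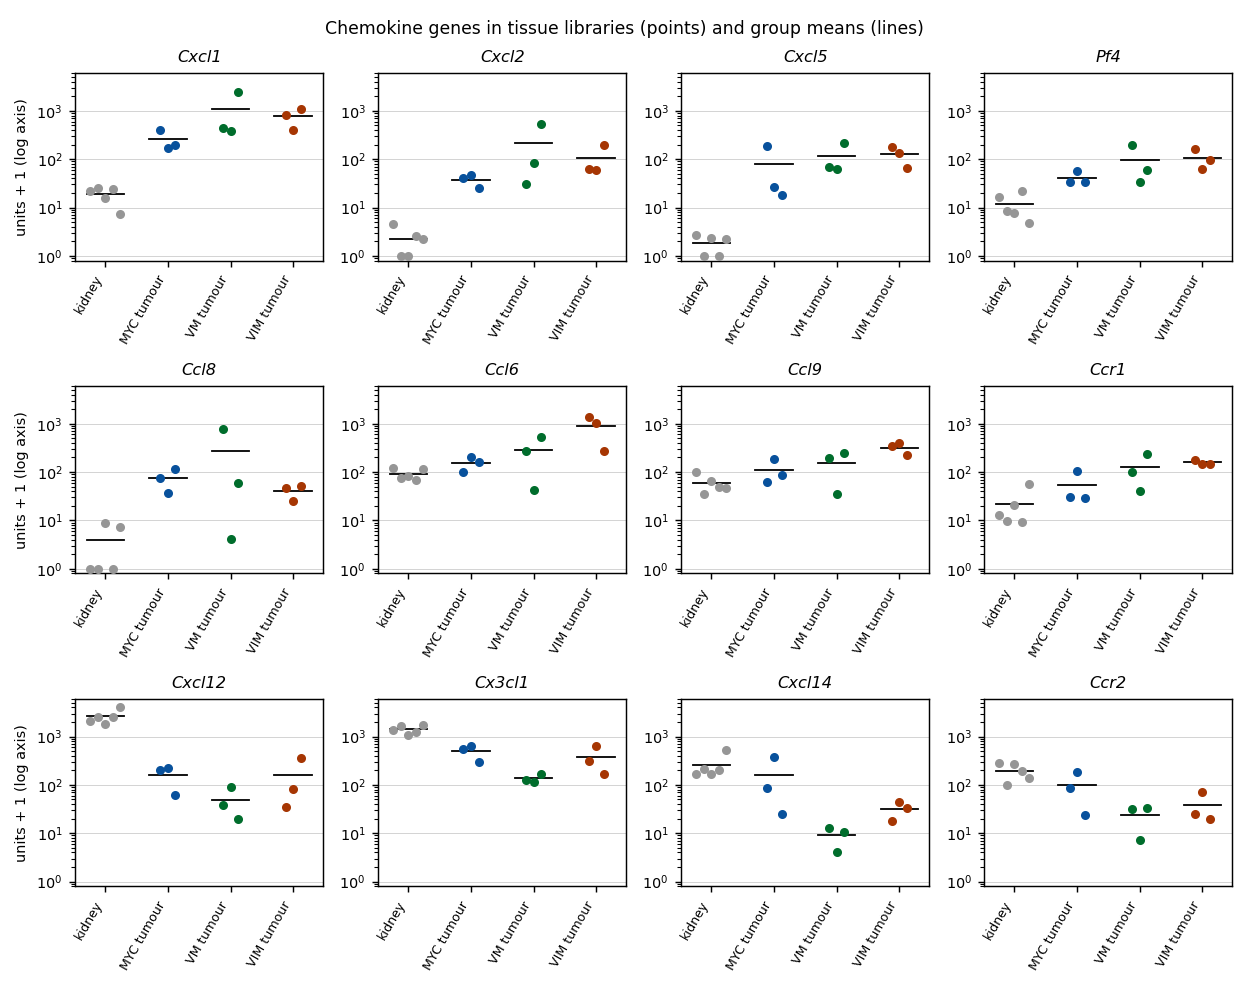
Units of 12 chemokine genes in each tissue library, on a log axis after adding 1. Points are libraries, 5 kidneys and 3 tumours per genotype, and lines are group means.

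Of the neutrophil-attracting ligands, Cxcl1, Cxcl2 and Cxcl5 rose in every genotype, and Ppbp and Cxcl15 did not. Cxcl1 read 20.8, 24.8, 14.7, 22.8 and 6.33 units in the kidneys, 404, 170 and 192 in MYC tumours, 443, 375 and 2432 in VM and 821, 392 and 1114 in VIM. Every tumour lay above every kidney. The tests gave 3.97 ± 0.587 (p 8.2e-04), 5.42 ± 0.657 (8.77e-05) and 5.36 ± 0.502 (2.48e-05), and the VM value was 4.56 without VM tumour 3. Cxcl2 read 3.46, 0, 0, 1.63 and 1.26 in the kidneys, 40.1, 46.3 and 24 in MYC, 29.3, 81.4 and 535 in VM and 60.3, 57.6 and 196 in VIM. Again no tumour overlapped the kidneys (4.29, p 0.00106; 5.84 ± 0.901, p 4.02e-04; 5.53 ± 0.652, p 9.31e-05), with folds of at least 7.09, 41.5 and 20.2. For VM the value was 6.77 without tumour 1 and 4.70 without tumour 3.

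Cxcl5 read 1.73, 0, 1.34, 0 and 1.26 in the kidneys, 188, 26.2 and 16.9 in MYC tumours, 67.9, 60.8 and 211 in VM and 181, 133 and 64.2 in VIM. All tumours exceeded all kidneys, by 5.24 ± 0.851 (p 0.00130), 5.82 ± 0.592 (2.91e-05) and 6.10 ± 0.546 (1.92e-05), or at least 14.8, 21.8 and 24.3-fold. Without MYC tumour 1 the MYC value was 3.70. Cxcl3 was 0 in every kidney and passed the test as higher in each genotype (2.79, 3.71 and 3.48), in VIM at least 2.13-fold. In MYC only tumour 1 was above the floor (12.1 units against 1.54 and 4.24) and in VM only tumour 3 (110 against 3.99 and 3.09), so each of these rests on 1 library. Ppbp, which fell with Dox in each line, was not called in tumours (−0.82, −0.21 and 0.10). Their receptors were scarce: Cxcr2 rose in VIM tumours, to a mean of 17.2 from 3.32 units (2.18, p 0.00292), and averaged 5.86 in MYC and 23.0 in VM without a call. Cxcr1 passed the test in VIM (1.78) with 1 library above the floor and a mean of 3.76 against 0, too few reads to read as a rise.

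The interferon-induced ligands did not move together. Cxcl10 read 104, 59.9, 111, 181 and 143 units in the kidneys and 270, 202 and 362 in MYC tumours, just above them. It rose by 1.26 ± 0.399 (p 0.0285), or 2.32-fold, and the call ended without MYC tumour 1 (1.26), MYC tumour 3 (1.05), kidney 1 (1.23) or kidney 3 (1.25). It was not called in VM (−0.39) or VIM (0.22). Cxcl9 read 91.7, 29.2, 110, 101 and 123 in the kidneys, 36.4, 21.6 and 0 in MYC, 148, 0 and 1.23 in VM and 1.88, 6.27 and 12.8 in VIM. VIM lay below all kidneys, whereas MYC and VM overlapped them. The log2 values were −2.64 ± 0.836 (p 0.0285), −3.58 ± 1.38 (0.0497) and −3.65 ± 0.621 (8.5e-04).

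Single libraries weigh on the Cxcl9 calls. In MYC the call ended without tumour 3 (−1.51) or kidney 1 (−2.60), kidney 3 (−2.53) or kidney 4 (−2.56), and the value was −4.12 without tumour 1 and −3.76 without tumour 2. In VM it ended without tumour 2 (−2.18), tumour 3 (−2.76) or kidney 1 (−3.54), kidney 2 (−3.95), kidney 3 (−3.48), kidney 4 (−3.51) or kidney 5 (−3.44), and it was −5.79 without tumour 1. In VIM it was −3.05 without tumour 1. Cxcl11 averaged 9.85 in kidney and 5.87, 6.79 and 9.05 in MYC, VM and VIM tumours, not called. The receptor Cxcr3 averaged 20.8 in kidney and 15.6 in MYC, and fell in VM to 3.55 (−3.14) and in VIM to 0.835 (−3.72, at least 3.68-fold).

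Cxcl12, among the most abundant members in kidney by level per length, fell in tumours of every genotype. It read 2067, 2577, 1794, 2536 and 4039 units in the kidneys, 203, 222 and 60.7 in MYC tumours, 37.3, 88.7 and 18.5 in VM and 33.9, 81.5 and 362 in VIM. All tumours were far below all kidneys. The tests gave −4.01 ± 0.325 (p 4.77e-05), −5.95 ± 0.436 (3.76e-06) and −4.62 ± 0.616 (1.97e-04), and the VIM value was −3.86 without tumour 1 and −5.54 without tumour 3. Its receptors differed less. Cxcr4 read 100, 133, 95.0, 74.9 and 138 in the kidneys and 267, 208 and 202 in VIM tumours, which lay above. It rose there by 1.08 ± 0.273 (p 0.00807) but was not called without VIM tumour 1 (0.95) or kidney 4 (0.96), nor in MYC (0.63) or VM (0.16). Cxcr7 read 1310, 904, 1161, 730 and 1140 in the kidneys and 663, 455 and 428 in VIM tumours, all lower. It fell there by 1.02 ± 0.229 (p 0.00422), and the call ended without VIM tumour 2 (−0.95), VIM tumour 3 (−0.90), kidney 1 (−0.93), kidney 3 (−0.98) or kidney 5 (−0.98), with −0.01 in MYC and −0.67 in VM not called.

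Cxcl14 read 170, 212, 166, 207 and 538 units in the kidneys, 84.0, 380 and 24 in MYC tumours, 12, 3.09 and 9.86 in VM and 16.9, 43.9 and 33 in VIM. MYC overlapped the kidneys and the others did not. The tests gave −1.35 ± 0.448 (p 0.0337), −4.80 ± 0.514 (3.98e-05) and −2.95 ± 0.454 (4.7e-04). The MYC call ended without tumour 1 (−1.25), tumour 3 (−0.37), kidney 2 (−1.38) or kidney 4 (−1.39), and the value was −2.33 without tumour 2. Pf4, a platelet chemokine also made by macrophages, read 15.6, 7.30, 6.69, 21.2 and 3.80 in the kidneys, 32.6, 55.6 and 32.5 in MYC, 200, 33 and 58 in VM and 162, 61.4 and 95.5 in VIM. It was higher in every tumour than in any kidney (1.90, p 0.0358; 2.85 ± 0.693, p 0.00592; 3.28 ± 0.574, p 0.001), and the VM value was 2.13 without tumour 1.

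Among the rest of the CXC family, Cxcl13 read 1.73, 2.92, 12, 1.63 and 2.53 units in the kidneys and 18.8, 15 and 145 in VIM tumours, without overlap. It rose there by 3.10 ± 0.812 (p 0.00959), and by 2.09 without VIM tumour 3. Cxcl16, abundant in all tissue, was not called (−0.33, −0.88 and −0.18), and its receptor Cxcr6 averaged 41.0 in kidney and 23.8 in MYC and fell to 4.78 in VM (−3.63) and 1.05 in VIM (−4.35, at least 7.26-fold). Xcl1 passed the test as lower in VIM (−1.88), at 0 against a mean of 3.44 with 1 kidney above the floor, too few reads to read as a fall.

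Fractalkine was lower in all tumours. Cx3cl1 read 1389, 1661, 1072, 1259 and 1760 units in the kidneys, 543, 639 and 301 in MYC, 124, 116 and 166 in VM and 307, 640 and 165 in VIM. No tumour reached a kidney. The tests gave −1.52 ± 0.211 (p 5.85e-04), −3.38 ± 0.200 (1.02e-06) and −2.13 ± 0.372 (9.75e-04). Its receptor Cx3cr1, found on monocytes and macrophages, read 102, 105, 104, 174 and 129 in the kidneys and 1148, 156 and 154 in MYC tumours, which overlap because 1 kidney exceeds 2 tumours. It rose by 1.80 ± 0.651 (p 0.0466), and the call ended without MYC tumour 1 (0.36), kidney 1 (1.74), kidney 2 (1.75), kidney 3 (1.75), kidney 4 (1.94) or kidney 5 (1.83). It was not called in VM (−0.92) or VIM (−0.84).

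Of the monocyte-attracting CC ligands, Ccl7 and Ccl8 rose in tumours of every genotype and Ccl2 rose in VIM. Ccl8 read 0, 0, 8.03, 0 and 6.33 units in the kidneys, 75.6, 35.5 and 112 in MYC tumours, 771, 3.09 and 58 in VM and 45.2, 23.8 and 49.6 in VIM, and 1 VM tumour lay among the kidneys. It rose by 4.92 ± 1.04 (p 0.00472), 4.63 ± 1.52 (0.0260) and 4.06 (0.00335), and the VM call ended without VM tumour 1 (2.75), VM tumour 3 (4.60) or kidney 1, 2 or 4 (4.32 each), with 6.53 without VM tumour 2. Ccl7, at or under the floor in every kidney, rose by 2.08, 2.72 and 4.13, in VIM at least 6.60-fold. It read 11.2, 10.8 and 1.41 in MYC, 9.32, 3.09 and 45.6 in VM and 50.8, 22.6 and 29.4 in VIM, so 1 MYC and 1 VM tumour are at or under the floor and the VM mean rests on tumour 3. Ccl2 read 29.4, 5.84, 26.8, 11.4 and 19 in the kidneys and 128, 145 and 31.2 in VIM tumours, just clear of them. It rose there by 2.32 ± 0.656 (p 0.0141), but not without VIM tumour 1 (2.01) or VIM tumour 2 (1.92), with 3.01 without VIM tumour 3, and MYC (0.59) and VM (0.38) were not called. Ccl12 averaged 5.21 in kidney and 19.9, 27.5 and 13.6 in MYC, VM and VIM, not called.

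The Ccr1 ligands Ccl6 and Ccl9 rose in VIM tumours. Ccl6 read 123, 73.0, 81.7, 68.4 and 115 units in the kidneys and 1380, 1031 and 277 in VIM, and Ccl9 read 96.9, 33.6, 65.6, 47.2 and 46.8 against 345, 391 and 226. Neither overlapped. They rose by 3.02 ± 0.480 (p 5.67e-04), or 3.72 without VIM tumour 3, and by 2.50 ± 0.373 (p 3.86e-04). In MYC and VM they were not called (0.56 and 1.02 for Ccl6, 0.69 and 1.09 for Ccl9). Ccr1 itself read 12.1, 8.76, 20.1, 8.14 and 56.9 in the kidneys, 101, 40.2 and 240 in VM and 179, 149 and 143 in VIM, and 1 VM tumour lay within the kidney range. It rose by 2.56 ± 0.737 (p 0.0141) in VM and 3.21 ± 0.594 (p 0.00140) in VIM and was not called in MYC (1.26), and the VM call ended without VM tumour 3 (1.93), with 3.21 without VM tumour 2. Ccl3 rose in VM to a mean of 23.4 from 4.64 (2.22, p 0.0403); its VIM mean of 39.3 (2.55, p 0.0555) was not called. Ccl24 passed the test in VIM (1.65), at 3.94 against 0.774, but no library was above the floor.

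Ccl19 and Ccl21c, ligands of Ccr7, fell in every genotype. Ccl21c read 111, 168, 87.0, 76.5 and 200 units in the kidneys, 0.933, 37 and 0 in MYC tumours, 0 in every VM tumour and 0, 8.77 and 5.51 in VIM. No tumour reached a kidney. The values were −5.13 ± 0.576 (p 2.14e-04), −6.92 ± 0.442 (1.65e-06) and −4.92 ± 0.711 (3.19e-04), with −4.29, −6.44 and −3.82 without MYC tumour 1, 2 or 3, and −3.92 and −5.57 without VIM tumour 1 or 2. With Ccl21c at 0 in every VM tumour, the VM value is set by the pseudocount (from −10.23 to −3.71 over the settings), and the fold there is at least 32.1. Ccl19 averaged 25.0 in kidney and fell in each genotype (−3.46, −4.50 and −3.29), and Ccr7, the receptor for these ligands, averaged 11.7 in kidney and 5.84 in MYC and fell in VM (−2.74) and VIM (−3.48, at least 2.07-fold). Ccl22 fell in VM, to 0.444 from 6.27 (−2.07, p 0.0492), and was not called in VIM (−2.09, p 0.0501). Kidney 2 read 0 for Ccl22 and kidney 4 was at the floor (4.89), so VM overlaps the kidneys. Ccr10 averaged 11.1 in kidney and fell in each genotype (−1.86, −2.28 and −1.86).

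Ccr2, the monocyte receptor for Ccl2, read 289, 96.4, 268, 195 and 137 units in the kidneys, 86.8, 185 and 22.6 in MYC tumours, 30.6, 6.19 and 32.1 in VM and 24.5, 71.4 and 18.4 in VIM. VM and VIM lay below the kidneys and MYC overlapped them. The tests gave −1.26 ± 0.444 (p 0.0421), −3.22 ± 0.575 (9.86e-04) and −2.47 ± 0.510 (0.00261). The MYC call ended without MYC tumour 1 (−1.46), MYC tumour 3 (−0.52), kidney 1 (−1.10), kidney 3 (−1.12) or kidney 4 (−1.24), and it was −2.01 without MYC tumour 2. In VM it was −2.50 without VM tumour 2.

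Some calls against kidney depend on other settings too. In MYC tumours Ccr2, Cx3cr1, Cxcl9, Cxcl10 and Cxcl14 were not called without a filter or with all tissue groups in one fit. With voom Ccr2 (−0.48), Cxcl14 (−0.35) and Cxcl9 (−1.64) lost their call, and with the libraries of 1 mouse kept separate Ccr2 (−1.33), Cx3cr1 (1.32) and Cxcl14 (−1.32) did. Ccr2 (−1.13) and Cx3cr1 (1.74) also lost it with a pseudocount of 10, both lost it with quantile scaling (−1.26 and 1.76), and Cx3cr1 lost it with trimmed-mean scaling (1.68). In VM tumours Cxcl9 lost its call with a pseudocount of 0.1 (−4.92) or 10 (−1.84), with quantile scaling (−3.34) and without a filter, and Ccl8 lost it without a filter. In VIM tumours Cxcr4 and Cxcr7 lost it in one fit and Cxcr7 with voom (−0.74).

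The choice of kidneys matters as well. With the B6 kidneys alone, Cx3cr1 (2.02), Cxcl14 (−0.89) and Cxcl9 (−2.93) were not called in MYC tumours, nor were Ccl8 (4.25), Ccr1 (2.60), Cxcl9 (−3.87) and Pf4 (2.71) in VM or Ccl2 (1.54) and Cxcl13 (2.59) in VIM. With the KT kidneys alone, Ccr2 (−0.86), Cx3cr1 (1.66), Cxcl10 (1.21) and Cxcl9 (−2.44) were not called in MYC, nor were Ccl8 (4.88), Ccr1 (2.54) and Cxcl9 (−3.39) in VM or Cxcr4 and Cxcr7 (−0.85) in VIM. Fewer kidneys are compared in these fits.

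Tumours of different genotype could not be separated by the test. Of 52 members tested with limma among 16607 genes, 0 were called between VM and MYC (0.0963 % of all genes were), 0 between VIM and MYC (0 %) and 0 between VIM and VM (0.205 %). Unadjusted p was below 0.05 for 8, 9 and 3 members, and voom also called 0. The largest differences include Cxcl14 (−3.45, adjusted p 0.159) and Cx3cl1 (−1.86, 0.250) for VM against MYC, and Ccl6 (2.46, 0.274) and Cx3cr1 (−2.64, 0.257) for VIM against MYC. A call in 1 genotype and not in another is therefore not a difference between genotypes.

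Marker genes describe the cells in the tissue libraries, and their part in the chemokine values was not tested. Beside all marker counts below, 18.8 % of all tested genes rose and 18.6 % fell in MYC tumours. In VM these shares were 17.3 % and 22.5 %, and in VIM 18.9 % and 20.7 %. Of 8 macrophage genes 7 rose in MYC, 2 in VM and 7 in VIM, with Cd68 at 3.90, 3.70 and 4.82 and Lyz2 at 3.66, 2.87 and 4.36. Their sum was 2220, 2285, 2054, 2207 and 3175 units in the kidneys, 23771, 5522 and 5672 in MYC, 13286, 3238 and 4249 in VM and 19539, 11391 and 11455 in VIM, and Lyz2 was the most abundant in every tumour. Of the neutrophil genes 1 of 6 rose in MYC, 1 of 5 in VM and 5 of 6 in VIM (S100a8 4.02, S100a9 2.86). Their sum was 26.0, 51.1, 36.1, 29.3 and 60.7 in the kidneys, 157, 127 and 55.1 in MYC, 97.2, 25.8 and 1069 in VM and 316, 208 and 439 in VIM, and S100a9 alone gave 507 in VM tumour 3. Leukocyte genes, 1 of 4 higher in MYC and in VIM and 1 lower in VM (Ptprc −2.29), summed to 965, 691, 977, 943 and 1066 in the kidneys, 2660, 1262 and 621 in MYC, 1073, 354 and 433 in VM and 1627, 1835 and 663 in VIM, mostly Laptm5.

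Lymphocyte markers were sparse in VM and VIM tumours. Of 7 T-cell genes 1 rose in MYC (Lck 1.35), 6 fell in VM and 5 in VIM, and they summed to 123, 80.3, 142, 86.3 and 171 units in the kidneys, 229, 113 and 63.6 in MYC, 28.0, 12.4 and 12.3 in VM and 33.9, 42.6 and 9.18 in VIM. The most abundant were Lck or Cd8a, and Cd3d was 0 in all VIM tumours, VM tumours 2 and 3 and MYC tumour 3. Of 4 B-cell genes 1, 4 and 3 fell, with sums of 34.6, 39.4, 37.5, 21.2 and 29.1 in the kidneys, 6.53, 66.4 and 5.65 in MYC, 1.33, 0 and 0 in VM and 3.77, 16.3 and 7.34 in VIM. Cd79b was the most abundant of them. Of 3 NK genes 0, 2 and 3 fell, with sums of 34.6, 7.30, 41.5, 14.7 and 44.3 in the kidneys, 36.9, 7.89 and 5.65 in MYC, 13.3, 0 and 0 in VM and 0, 2.51 and 4.15 in VIM, mostly Nkg7, and Ncr1 was 0 in all VIM tumours, VM tumours 2 and 3 and MYC tumours 2 and 3. Of 4 dendritic genes 1, 3 and 3 fell, and the sum, mostly Itgax or Zbtb46, was 163, 111, 162, 163 and 206 in the kidneys, 174, 221 and 33.9 in MYC, 49.3, 79.4 and 60.4 in VM and 149, 299 and 16.5 in VIM.

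Markers of the resident cells of the kidney were mostly lower. All 5 endothelial genes fell in MYC and VIM and 4 of 5 in VM (Kdr −4.19, −4.21 and −3.65), with sums of 4002, 3253, 3463, 4448 and 5579 units in the kidneys, 608, 1431 and 192 in MYC, 1949, 252 and 555 in VM and 446, 684 and 1022 in VIM, mostly Emcn or Pecam1. Of 10 kidney-epithelium genes 8, 8 and 9 fell (Umod −9.10, −15.46 and −7.94) and 1 rose in each (Pax8 1.42, 1.14 and 1.49). They summed to 223426, 264177, 265028, 257166 and 315896 in the kidneys, 25908, 21921 and 16925 in MYC, 18642, 21920 and 16449 in VM and 17669, 25436 and 9678 in VIM. Cdh16 was the most abundant in every tumour, Slc34a1 or Umod in the kidneys, and Aqp2 was 0 in VM tumours. Fibroblast genes, 1 of 7 higher and 1 lower in MYC, 3 lower in VM and 1 lower in VIM, summed to 1576, 2896, 1158, 2024 and 4240 in the kidneys, 1134, 12369 and 986 in MYC, 1710, 602 and 936 in VM and 953, 2538 and 2471 in VIM, mostly Col1a2.

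Markers carried in blood were mixed. Megakaryocyte and platelet genes, 5 in number, had 1 higher and 1 lower in VM and none called elsewhere, with sums of 87.9, 96.3, 99.1, 103 and 117 units in the kidneys, 113, 174 and 53.7 in MYC, 108, 144 and 94.9 in VM and 94.7, 105 and 101 in VIM, mostly Itga2b. Red-cell genes fell in number 3, 2 and 2 of 3, with sums, mostly Hba-a2, of 9197, 7147, 3494, 4780 and 2940 in the kidneys, 1918, 2142 and 552 in MYC, 5948, 573 and 691 in VM and 443, 703 and 6001 in VIM.

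**Figure D4:**
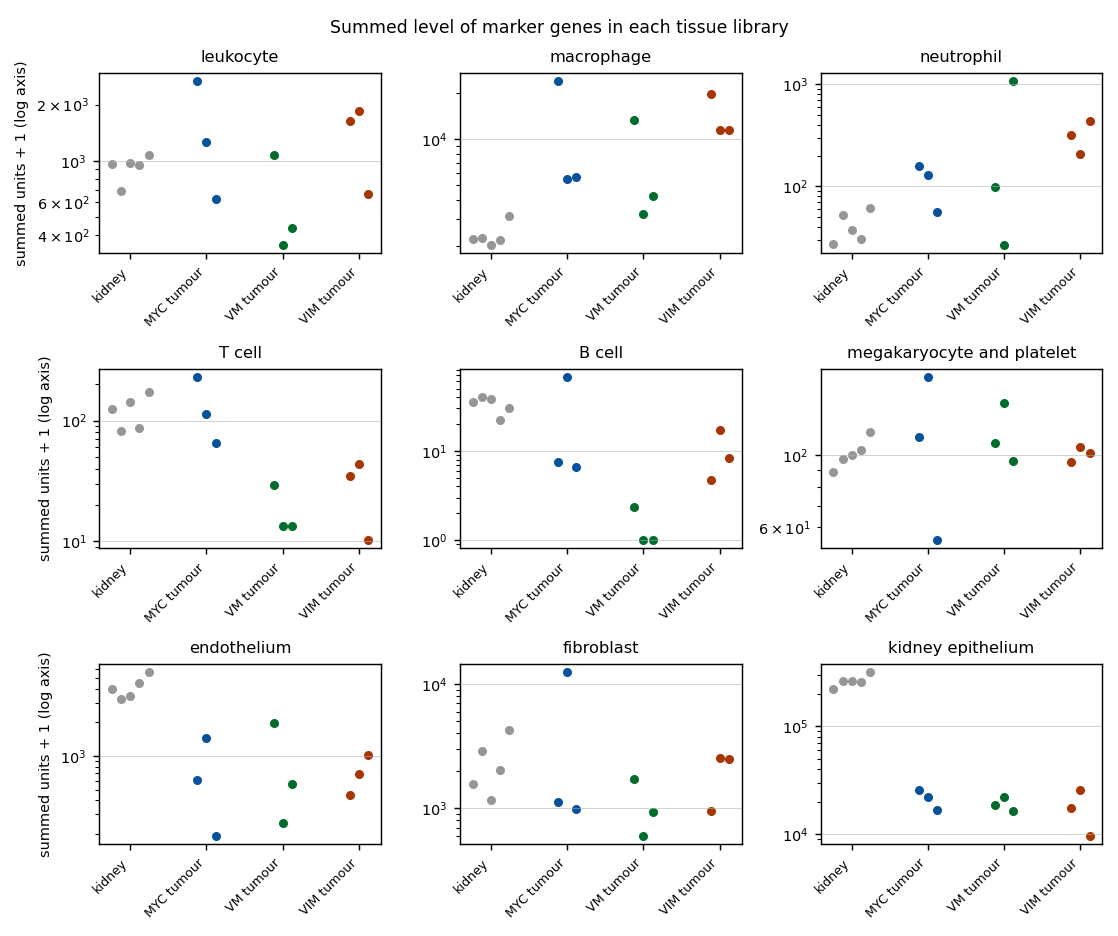
Summed units of marker genes for 9 cell types in each tissue library, on a log axis after adding 1. Points are libraries, 5 kidneys and 3 tumours per genotype.

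The same pathway lists were read in tumours. Of all tested genes 18.8 % rose and 18.6 % fell in MYC, 17.3 % and 22.5 % in VM, and 18.9 % and 20.7 % in VIM. The VIM count of higher NF-kB and cytokine genes lies below that share. Those of the other chemokine-system genes that rose lie near it. Of the NF-kB and cytokine list 11 of 17 rose in MYC, 5 of 16 in VM and 2 of 17 in VIM and 0 fell, with Nfkbiz at 2.88, 2.90 and 2.09, Relb at 2.48 in MYC and 1.53 in VM, and Csf1 at 2.23 in MYC. Of 15 interferon-response genes 1 rose and 5 fell in MYC (Stat2 −1.82, Ifit2 1.53), 0 rose and 9 fell in VM (Gbp3 −2.78, Psmb8 −2.26), and 2 rose and 3 fell in VIM (Ifit2 1.57, Stat2 −1.46). Of the other chemokine-system genes 4 of 20 rose and 5 fell in MYC (Mif 1.49, Adrbk2 −1.97), 4 of 20 rose and 6 fell in VM (Mif 2.19, Adrbk2 −5.97, Cd74 −4.58), and 3 of 19 rose and 6 fell in VIM (Mif 2.23, Cd74 −3.26).

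Levels of different genes can be set side by side, roughly, once divided by length. Length here counts all annotated exon bases of a gene, merged, such as 8176 for Cxcl12, and not the length of the transcripts expressed. The ranks are therefore approximate, and Ccl25, with 2 annotated loci, is left out of them. With Dox, Cxcl1 led each line at 789 units per kb in MYC, 621 in VM and 717 in VIM, followed by Ccl2 in MYC (580) and VIM (126) and by Ccl20 in VM (142). Without Dox the leading genes were Ccl2 (1479) and Cxcl1 (1220) in MYC, Cxcl1 (1066) and Ccl2 (175) in VM, and Ppbp (850) and Ccl2 (692) in VIM. In kidney Cxcl16 (396, standard deviation 64.5), Cx3cl1 (385, 76.3), Cxcl12 (318, 106) and Cxcr7 (313, 68.7) led. In MYC tumours they were Cxcr7 (326, 158), Cxcl16 (324, 247) and Cxcl1 (268, 135), in VM tumours Cxcl1 (1136, 1226) and Ccl8 (542, 838), and in VIM tumours Cxcl1 (814, 381) and Ccl6 (499, 314). Neighbouring ranks within a tumour group are not separated by such spreads. The MYC tumour means, standard deviations and folds count tumours 2 and 3, which share a mouse, as separate libraries.

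Members not called in any comparison include the following. Apart from those of them that never passed the floor, the highest group mean was 4.75 units for Ccl11, 9.05 for Ccr9, 4.60 for Cxcl17 and 3.29 for Cxcr5. Ccl12, Ccl25 and Ccl27a were expressed without a call, with tissue means for Ccl25 of 66.0 in kidney and 40.6, 61.6 and 81.3 in MYC, VM and VIM tumours, and for Ccl27a of 135 and 95.9, 134 and 156.

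Many members lie in clusters, and neighbours did not always move together. In the mm9 annotation Cxcl5, Ppbp, Pf4, Cxcl3, Cxcl15, Cxcl1 and Cxcl2, 7 genes, lie between 91188325 and 91334935 on chromosome 5. Of these, Ppbp, Cxcl5, Cxcl3 and Cxcl2 fell with Dox in the MYC line while Cxcl1 was not called and the others were not above the floor. Cxcl9, Cxcl10 and Cxcl11 form a cluster on the same chromosome, Ccl2, Ccl7, Ccl11, Ccl12, Ccl8 and Ccl1 form another on chromosome 11, and Ccl5, Ccl9, Ccl6, Ccl3 and Ccl4 lie further along it. Some members share sequence with other genes: 100 % of the 50-base stretches of Ccl21c and Ccl27b, 96.4 % of Ccl19 and 43.3 % of Ccl27a occur elsewhere among transcripts, so their values are uncertain. The figures are 6.35 % for Cxcl3 and 3.33 % for Cxcl2. In addition, 12 members overlap another gene on the other strand, such as Cxcl10 and Cxcl11 with Art3, and the strand setting used for counting is not stated.

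Promoter sequence was read for motifs in the 250 bases before each start, which covers 41 of 57 members in 48 windows; those with no entry include Ccl2, Ccl4, Ccl5, Ccl7, Ccl11, Ccl21c, Ccl24, Ccl26, Ccr7, Ccr10, Cxcl5, Cxcl11, Cxcl16, Cxcl17 and Cxcr5. Both strands were read, and a match describes the sequence and says nothing about binding. The E-box CACGTG occurred in 2.08 % of member windows (1, for Cxcl3) and 6.02 % of all 32851 windows. ACGTG, which is contained in CACGTG, occurred in 8.33 % and 16.6 %, and GCGTG in 35.4 % and 28.2 %. GGNNTTTCC, a part of NF-kB sites, occurred in 16.7 % and 4.93 %, and TTCNNTTTC, of interferon-response elements, in 16.7 % and 7.13 %. The sequences below are RefSeq-based starts on GRCm38.p6, shown for the members with the largest Dox falls (Ppbp, and Cxcr7, listed as Ackr3) and the ligands with large tumour rises (Cxcl1 and Cxcl2). All are on the plus strand, with matches in capitals. Ppbp (chr5:90768268-90768517) has none of these motifs, Cxcr7 (chr1:90203730-90203979) has 1 GCGTG, Cxcl1 (chr5:90890995-90891244) has 1 ACGTG and 2 GGNNTTTCC, and Cxcl2 (chr5:90903649-90903898) has 2 GCGTG and 2 GGNNTTTCC.

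Ppbp: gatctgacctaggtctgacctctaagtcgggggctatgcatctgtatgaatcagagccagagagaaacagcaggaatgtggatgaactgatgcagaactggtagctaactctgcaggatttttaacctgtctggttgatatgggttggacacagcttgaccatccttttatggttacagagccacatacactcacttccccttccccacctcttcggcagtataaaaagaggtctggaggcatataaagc

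Cxcr7: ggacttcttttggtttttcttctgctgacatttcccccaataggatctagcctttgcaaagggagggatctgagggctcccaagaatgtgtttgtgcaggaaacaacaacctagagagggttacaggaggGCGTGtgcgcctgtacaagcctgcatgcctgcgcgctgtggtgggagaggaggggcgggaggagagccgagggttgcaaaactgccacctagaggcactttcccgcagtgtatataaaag

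Cxcl1: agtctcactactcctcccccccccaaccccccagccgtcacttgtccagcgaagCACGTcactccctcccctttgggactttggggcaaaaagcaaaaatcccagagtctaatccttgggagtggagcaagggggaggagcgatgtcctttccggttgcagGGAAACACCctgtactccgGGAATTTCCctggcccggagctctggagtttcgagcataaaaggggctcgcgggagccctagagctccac

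Cxcl2: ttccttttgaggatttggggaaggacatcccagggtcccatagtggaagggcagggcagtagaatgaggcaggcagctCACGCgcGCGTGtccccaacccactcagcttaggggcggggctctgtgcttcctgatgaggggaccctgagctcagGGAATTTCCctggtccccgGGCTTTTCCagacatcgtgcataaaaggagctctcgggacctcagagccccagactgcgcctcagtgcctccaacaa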

How the data were processed

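RNA of cell lines, tumours and kidneys was sequenced in pairs from stranded mRNA libraries. The authors aligned reads to mm9 and estimated genes with RSEM (Picard 1.64 and SAMtools were also used), and the deposited signal is that estimate scaled to an upper quartile of 1000 in every library. Depth, recovered from the step between low values, was 12.4 M to 36.6 M reads in cells and 8.22 M to 15.5 M in tissue. R 4.3.3 and limma 3.58.1 (trend) tested log2(value + 1) for genes above 0 in at least 4 cell libraries or 2 tissue samples. Genes at Benjamini-Hochberg adjusted p < 0.05 over all tested genes and absolute log2 above 1 were called. Line differences were interaction contrasts. Values of every library are given for called members whose higher group averages 50 units or more. Folds against a group within the floor are lower bounds. Alternatives were pseudocounts 0.1 and 10, no filter, a mean filter of 10 units, trimmed-mean (30 and 5 %) and quantile scaling, voom, a joint fit, a replicate block, kidney subsets, separate libraries of 1 mouse and leaving out 1 library. The code was tested on simulated data. Python 3.11.15 and matplotlib 3.10.9 drew figures. Members and lists were chosen with earlier results of these data known.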

Additional observations from a re-analysis of the deposited data

Results flagged for a closer look

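In 4 of 51 gene and group pairs examined, 1 library lay far from the others, and chance flags about 1 in 20 groups. Ccl2 read 58.6 units in VM Dox library 3 (nearest 53.5), Ccl7 146 in MYC noDox library 3 (nearest 155), Ccr1 56.9 in kidney 5 (nearest 20.1) and Cxcl14 538 in kidney 5 (nearest 212).

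Tests of the difference in Dox effect between lines called 9, 14 and 7 genes, and those averaging 50 units or more in some group of the 2 lines are given here, each as the log2 effect in the first line minus that in the second. For VM minus MYC they are Ccl7 2.32, Cx3cl1 1.14, Cxcl14 1.54, Cxcl16 1.59, Cxcr7 −1.73 and Ppbp −1.92. For VIM minus MYC they are Ccl2 −1.10, Ccl20 2.52, Ccl9 −1.54, Cx3cl1 1.68, Cxcl1 1.59, Cxcl10 1.07, Cxcl14 1.73, Cxcl2 2.89, Cxcl5 1.74, Cxcr7 2.29 and Ppbp −1.03. For VIM minus VM they are Ccl20 1.55, Ccl9 −2.12, Cxcl1 1.74, Cxcl2 1.76 and Cxcr7 4.02. Ccl7 in VM, Ccl9 in VM, Cxcl2 in VIM and Cxcr7 in VIM are near the floor with and without Dox. That limits what their differences between lines can say.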

How the results depend on the processing

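Of 81 member results with values per library, 58 kept their call in every alternative and 23 lost it in at least 1; of 1554 refits 1443 kept the call, 110 did not and 1 reversed. The reversed value is Cxcr7 for VIM against MYC, −0.41 with a pseudocount of 0.1, not called there. Calls were lost in 50 of 824 refits without 1 library, 9 of 40 with B6 kidneys alone and 9 of 40 with KT kidneys alone. Losses were 7 of 81 each with quantile scaling and without a filter, 5 of 81 with voom and 2 of 81 with trimmed-mean scaling. They were 3 of 11 with the libraries of 1 mouse separate and 7 of 59 with all groups in one fit. A pseudocount of 10 lost 6 of 81, and a pseudocount of 0.1 lost 5 of 81 besides the reversed value. Counts of called members moved by over 1.5 times in these cases, and the cause was not tested: Dox in VM from 10 to 6 with a pseudocount of 10, Dox in VIM from 10 to 4 with a pseudocount of 10 and to 5 with a mean of at least 10 units, MYC tumours from 17 to 10 without a filter, 9 with all groups in one fit, 11 each with B6 kidneys, with KT kidneys, without MYC tumour 1 and without kidney 3, and VM tumours from 21 to 12 with B6 kidneys. Leaving out 1 library gave 15 to 16 called members for Dox in MYC, 10 to 11 in VM and 8 to 13 in VIM; 9 to 11 for VM against MYC, 13 to 14 for VIM against MYC and 7 to 9 for VIM against VM; 11 to 16 for MYC, 16 to 25 for VM and 24 to 30 for VIM tumours against kidney; and 0 between tumours. Leaving out MYC tumour 1 leaves 1 MYC animal, assumed to vary like the other groups. With a replicate block from shared numbers 10 members were called in VM, 11 in VIM and 7 for VIM against VM; libraries with the same number correlated at −0.0524 in VM and −0.00801 in VIM. At these depths genes at a few units are not resolved.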
